A study of Homo sapiens with 22 samples.

Results

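The collagen chain genes are the genes whose symbol reads COL, a type number, A and a chain number. A total of 44 of the 60675 genes in the count table carried such a symbol. The set was defined by symbol alone, but with earlier results of these data known. Of these, 11 encode chains of fibrillar collagens, 9 encode chains found in basement membranes and 24 encode the remaining, minor collagens. Together they held between 0.195% and 0.927% of the counts of a library, and 29 of the 44 were abundant enough to be tested in at least 1 comparison.

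Collagens are secreted proteins in which chains wind around each other into a triple helix. Fibrillar collagens pack into the striated fibres of connective tissue, and type I, built from COL1A1 and COL1A2 chains, is the main one in skin, bone and tendon. Type IV collagen forms the sheet-like network of basement membranes, type VII anchors that network to the tissue beneath, and type VI assembles into beaded filaments around cells. Other minor collagens decorate fibrils, span the plasma membrane or form short-chain networks. Fibroblasts are a major source of fibrillar collagen, and HT1080 is a fibrosarcoma cell line, that is, a cultured tumour line of connective tissue origin.

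The study asked how gene expression differs when a lysine deacetylase is present but cannot catalyse. KDAC6 (also called HDAC6) is a mostly cytoplasmic deacetylase with a pair of catalytic domains, and KDAC8 (HDAC8) is a class I deacetylase. Total RNA of HT1080 cells was sequenced in 22 libraries. Unmodified WT cells gave 4 libraries, as did each of 3 lines edited with CRISPR so that a catalytic histidine of the endogenous gene became alanine. KDAC6H216A carries the change in the first KDAC6 domain, KDAC6H611A in the second, and KDAC8H143A in KDAC8. WT cells treated for 2 days with 1 µM Tubastatin A, a KDAC6 inhibitor, and WT cells treated for 2 days with 5 µM PCI-34051, a KDAC8 inhibitor, gave 3 libraries each. The mutant lines and the untreated WT cells had no treatment, and no vehicle control is described. The mutant lines were grown from single colonies, and for KDAC6H216A 3 independent lines were pooled, so in these data a property of the colonies and an effect of the substitution cannot be told apart. The count of a gene does not show a substitution in it, so the genotypes were not checked here.

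Library totals ran from 5248953 to 12752463 counts in WT cells and the KDAC6 lines, from 11010719 to 17170473 in KDAC8H143A and from 24315766 to 29862665 with the inhibitors. Mitochondrial rRNA took 20.8% to 23.9% of the counts in WT cells, and 0.0259% or less in every KDAC8H143A and inhibitor library. KDAC6H216A replicate 1 and KDAC6H611A replicate 4 also stood apart from their groups, with 0.195% and 0.173% of mitochondrial rRNA against 13.1% to 38.0% in the other libraries of the 2 lines. Of 10 mesenchymal markers 9 or 10 were at 1 CPM or more in each group, with levels far apart. In WT, VIM, the intermediate filament of connective tissue cells, was at 3891 CPM and FN1 at 718. TWIST1 was at 5.56, PDGFRB at 3.83 and S100A4 at 0.630 CPM. The summed level of these markers was 4750 to 5544 CPM in WT, 3529 to 6092 in KDAC6H216A, 2725 to 4785 in KDAC6H611A, 3121 to 4193 in KDAC8H143A, 6828 to 7228 with Tubastatin A and 7275 to 7526 with PCI-34051. FN1 was at 2391 CPM with Tubastatin A and 3123 with PCI-34051, while VIM was at 3574 and 3189. Of 9 epithelial markers 1 or 2 reached 1 CPM, with CDH1 and EPCAM at 0 in WT, and no leukocyte marker of 4 did. CLDN4 was at 4.07 CPM in WT and 7.75 in KDAC8H143A, and ESRP2 at 1.27 and 2.96. Of 4 endothelial markers TIE1 was at 95.4 ± 5.601 CPM in WT and 142 ± 27.6 in KDAC6H611A, and the list summed to 88.9 to 174 CPM over all libraries, while PECAM1 and CDH5 had means of 0.332 and 0.155 CPM in WT. The part of these differences in the results was not tested, except where a value is given. Mitochondrial rRNA was lower and the total count higher in every KDAC8H143A and inhibitor library than in every WT library. In those comparisons these library differences and the mutation or treatment cannot be told apart. In bulk RNA, fewer cells of a kind and less RNA per cell cannot be told apart.

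Levels are given as CPM, the usual scaling of counts to a common library total, here after TMM scaling over all 22 libraries, and, wherever genes are compared with each other, as CPM per kilobase of transcript. Each line or treatment was compared with WT by the quasi-likelihood test of edgeR, adjusted by the Benjamini-Hochberg method over all genes tested, and a gene is called upregulated or downregulated at an adjusted p under 0.01. Log2 fold changes carry their standard error (SE). They come from fits of the 2 groups compared, which have their own scaling, so the log2 ratio of the mean CPM printed here differs from them by a median of -0.086 to 0.12, depending on the comparison. The 5 comparisons with WT share the same 4 WT libraries. The replicates are called biological, with no word on separate cultures, so p-values measure the spread between these libraries.

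In WT cells the most abundant collagen mRNA per kilobase was COL6A3, the large chain of type VI collagen, at 199 ± 13.5 CPM per kilobase (SD, n = 4). COL4A2 and COL4A1, the chains of the common type IV network, stood at 97.2 ± 9.88 and 55.6 ± 3.30, with COL13A1, a transmembrane collagen, between them at 65.8 ± 2.77. COL6A2 and COL6A1, the partners of COL6A3, followed at 44.2 ± 2.83 and 32.8 ± 2.03. The most abundant fibrillar mRNAs were COL27A1 at 17.5 ± 0.656 and COL5A1 at 12.2 ± 0.948 CPM per kilobase. Each of these 8 chains was higher in every WT library than the next in order was in any. COL12A1 (8.12 ± 0.428) and COL18A1 (7.77 ± 1.009) overlapped, as did COL8A1 (1.93 ± 0.0402) and COL7A1 (1.87 ± 0.249). The type I chains, which define a collagen-secreting fibroblast, were low here, with COL1A1 at 0.514 ± 0.0605 and COL1A2 at 0.453 ± 0.198 CPM per kilobase, and the WT libraries of the 2 genes overlapped.

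**Figure D1:**
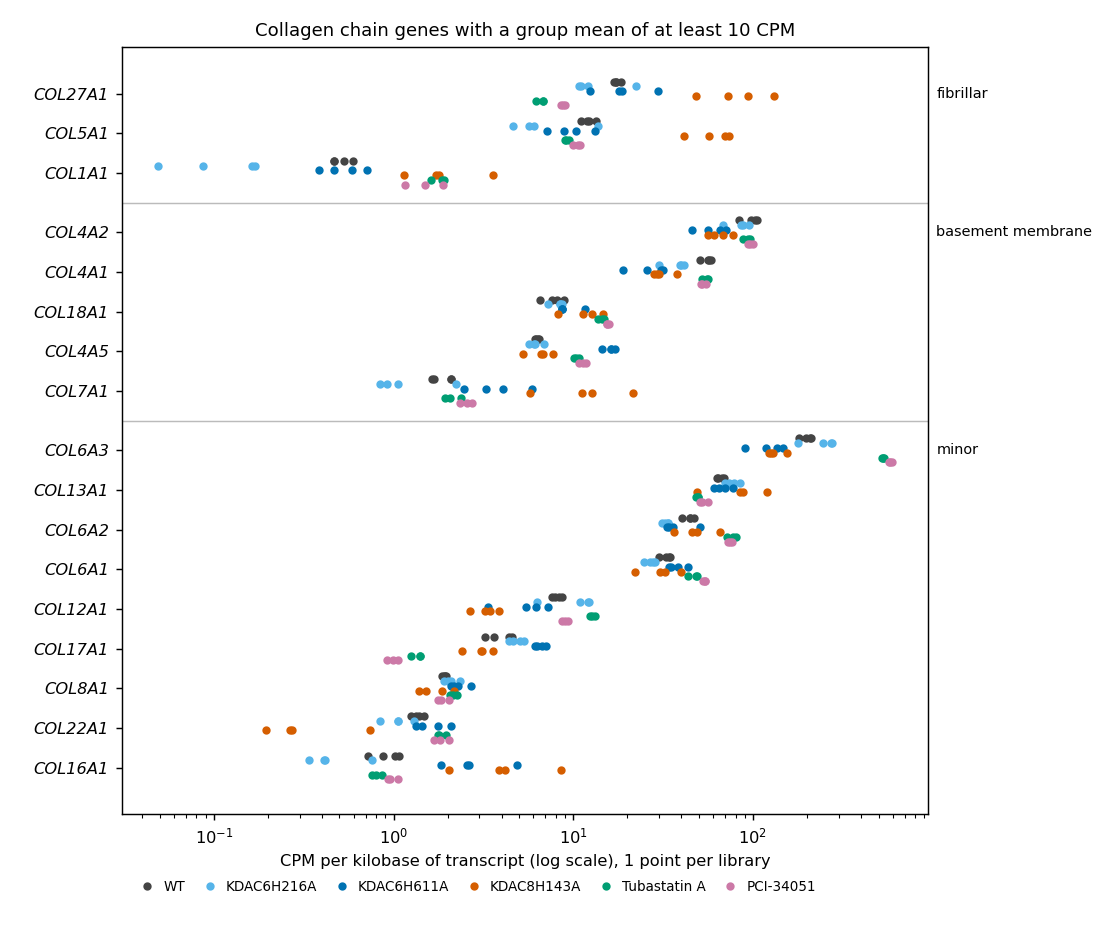
CPM per kilobase of transcript (log scale) of the 17 collagen chain genes whose mean reached 10 CPM in at least 1 group, with 1 point per library and colours for the 6 groups. COL6A3 has the highest mean in every group, COL1A1 sits lowest in KDAC6H216A, and the KDAC8H143A points of COL27A1 and COL5A1 lie to the right of those of the other groups.

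The other end of the list was close to 0. A total of 15 members stayed under 1 CPM in every group mean and were tested in no comparison, with between 1 and 147 counts summed over all 22 libraries. They include COL2A1 and the type IX genes COL9A1, COL9A2 and COL9A3, which are cartilage collagens, COL3A1, which accompanies type I in soft tissue, and COL4A3 of the kidney network. The others were COL5A3, COL14A1, COL15A1, COL19A1, COL20A1, COL21A1, COL23A1, COL24A1 and COL26A1. The highest group mean among them was 0.746 CPM, for COL5A3 in KDAC8H143A. At these depths 3 counts correspond to 0.0953 to 0.620 CPM, and no comparison is drawn from these genes.

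The make-up of collagen mRNA was taken as each class's share of summed CPM per kilobase. Fibrillar chains made 5.59 ± 0.439% of it in WT (n = 4), 25.0 ± 4.47% in KDAC8H143A, 4.13 ± 2.31% in KDAC6H216A and 7.22 ± 2.79% in KDAC6H611A (n = 4 each). The inhibitors gave 2.07 ± 0.0863% (Tubastatin A) and 2.25 ± 0.0934% (PCI-34051, n = 3 each). The KDAC8H143A libraries, at 20.6% to 29.5%, lay above every other library, and the inhibitor libraries, at 1.98% to 2.35%, below every other. KDAC6H216A replicate 1, low in mitochondrial rRNA, was at 7.59%, and the other libraries of that line at 2.77% to 3.26%. KDAC6H611A replicate 4, also low in it, was at 6.15%, inside the 4.68% to 11.2% of its line. Basement membrane chains made 30.1 ± 0.787% in WT, 21.8 ± 2.11% in KDAC8H143A, 24.5 ± 0.778% in KDAC6H216A and 26.7 ± 1.56% in KDAC6H611A, and 19.0 ± 0.371% (Tubastatin A) and 18.2 ± 0.228% (PCI-34051) after treatment. No library of these 5 groups overlapped with WT in this share. Minor chains made the remainder, from 53.2 ± 2.39% in KDAC8H143A to 79.5 ± 0.160% with PCI-34051, against 64.3 ± 0.686% in WT. The 3 type VI chains alone made 49.2 ± 0.921% in WT, 71.3 ± 0.178% with Tubastatin A and 72.3 ± 0.325% with PCI-34051. These shares are descriptions of summed levels and were not tested.

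**Figure D2:**
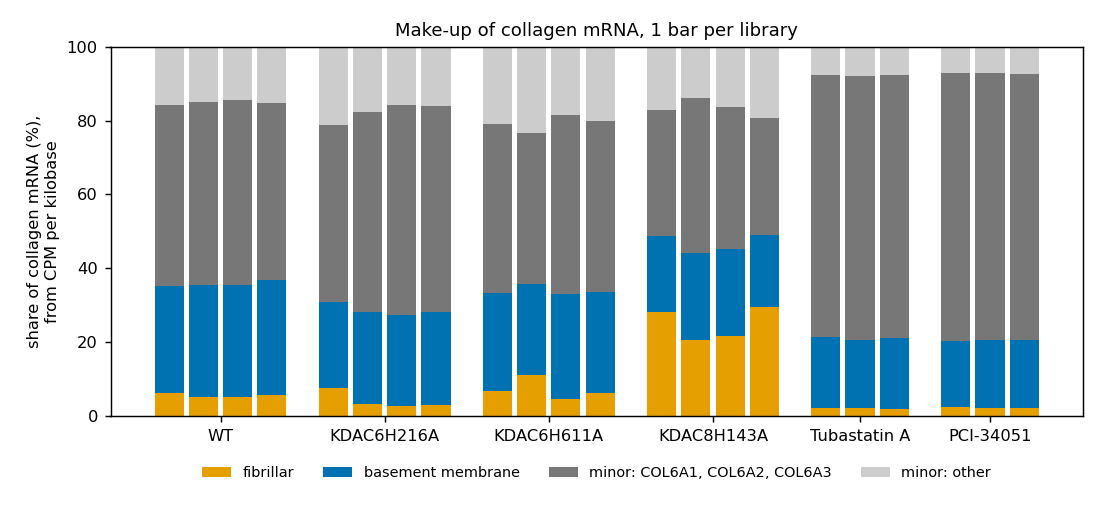
Share of collagen mRNA (%, from CPM per kilobase) held by the fibrillar, basement membrane and minor chains, with 1 stacked bar per library in the order of the groups. The fibrillar segment is widest in the 4 KDAC8H143A libraries, at 20.6% to 29.5%, and narrowest in the 6 inhibitor libraries, at 1.98% to 2.35%.

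Numbers of chains called have to be read against the share of all genes called, which ranged widely. In KDAC6H216A 0.834% of all genes were called, and 2 of 24 collagen genes, COL4A1 and COL6A2, both downregulated (background 0.214% up and 0.621% down). In KDAC6H611A 12.3% of all genes were called, and 8 of 24 collagen genes, 5 upregulated (background 6.08%) and 3 downregulated (6.24%). Of the 5, COL4A6 was abundant enough to be tested there only through KDAC6H611A, so its call was partly set by the filter. In KDAC8H143A 58.5% of all genes were called, and 17 of 27 collagen genes, 11 upregulated (31.6%) and 6 downregulated (26.9%). Of the 11, COL11A1, COL25A1 and COL6A5 were abundant enough to be tested against WT only here, through KDAC8H143A, so their calls were partly set by the filter. Of the 6, COL1A2 was abundant enough to be tested here only through WT, so its call was partly set by the filter as well. Tubastatin A called 57.9% of all genes and 15 of 26 collagen genes, 8 upregulated (29.3%) and 7 downregulated (28.6%). PCI-34051 called 51.1% of all genes and 12 of 26 collagen genes, 7 upregulated (25.5%) and 5 downregulated (25.6%). Of those downregulated, COL28A1 with both inhibitors and COL11A2 with Tubastatin A were abundant enough to be tested only through WT. In KDAC8H143A and with both inhibitors the share of collagen genes called was thus near the background, and the counts there say little about collagens as a group. In total 25 members were called in at least 1 comparison with WT.

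The split by direction depended on scaling. With libraries scaled by total count only, the median gene's log2 fold change moved up by 0.35 with Tubastatin A, 0.39 with PCI-34051, 0.29 in KDAC8H143A and 0.17 in KDAC6H216A. In KDAC6H216A 0 collagen genes were then upregulated and 1 downregulated, where 3.06% of all genes were called (2.47% up and 0.586% down). In KDAC6H611A it was 4 and 0, at a background of 6.2% (3.73% and 2.47%), and in KDAC8H143A 14 and 4, at 55.7% (40.3% and 15.5%). Tubastatin A gave 13 and 4, at 64.0% (51.9% and 12.1%), and PCI-34051 15 and 2, at 61.1% (51.4% and 9.62%). After correction for GC content and length the split was 8 and 10 in KDAC8H143A (background 21.4% and 27.3%), 8 and 8 with Tubastatin A (56.8% of all genes called, 26.7% up and 30.0% down) and 6 and 8 with PCI-34051 (50.8%, 23.5% and 27.4%). When an absolute log2 fold change of at least 1 was asked for as well, 12 collagen genes were called in KDAC8H143A (33.9% of all genes), 6 under Tubastatin A (14.9%), 5 under PCI-34051 (13.2%), 5 in KDAC6H611A (5.01%) and 0 in KDAC6H216A (0.545%). Removing the mitochondrial and small RNA genes changed no collagen call of the TMM fits. All other values are from the TMM fits and are relative to the median gene, which stood at a log2 fold change between -0.0071 and 0.076 in the comparisons with WT.

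**Figure D3:**
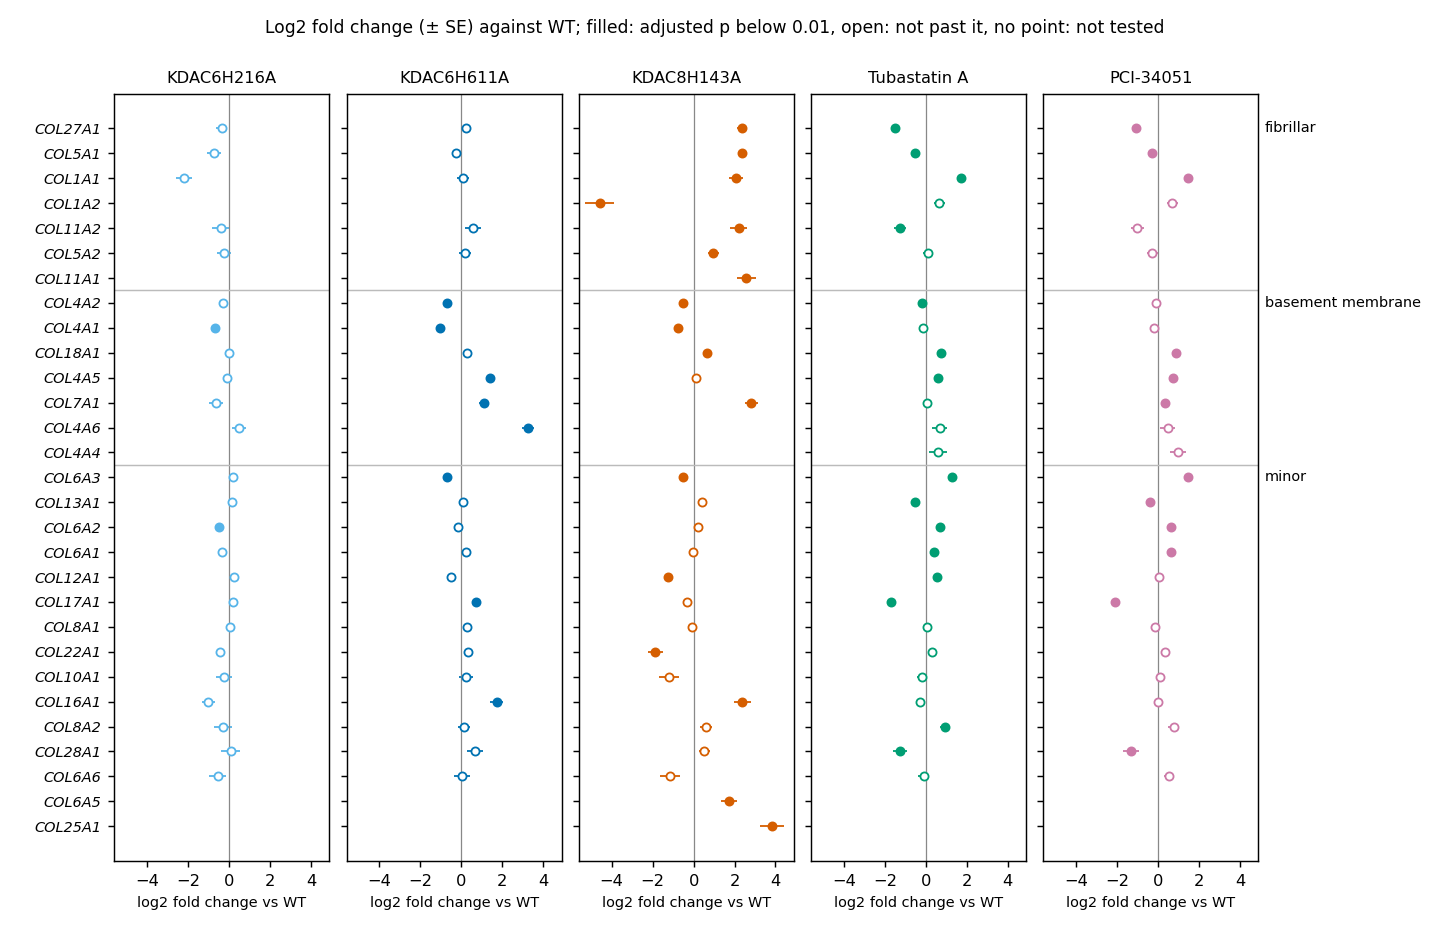
Log2 fold change against WT of the collagen chain genes tested, by class and comparison, with bars of 1 SE and filled points for genes called at an adjusted p under 0.01. COL1A2 in KDAC8H143A lies farthest to the left at -4.59, COL25A1 in KDAC8H143A and COL4A6 in KDAC6H611A lie farthest to the right at 3.84 and 3.24.

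In KDAC8H143A all 7 fibrillar genes tested were called, 6 upregulated and COL1A2 downregulated, against a background of 58.5% of all genes (31.6% up and 26.9% down). Among the 6, COL11A1 passed the low count filter in no other comparison with WT. It did so here only through KDAC8H143A, so its call was partly set by the filter. COL1A2 passed the filter here only through WT, where it is high, so its call was partly set by the filter too. The median log2 fold change over the 5 fibrillar genes tested in every comparison was 2.21, and 1.006 after correction for GC content and length. By edgeR 0 of 5 fibrillar genes were called in either KDAC6 line, with 1 in KDAC6H216A and 0 in KDAC6H611A at an unadjusted p under 0.05, and DESeq2 called 1, COL1A1 in KDAC6H216A. Tubastatin A upregulated 1 of 6 and downregulated 3 (background 57.9%, 29.3% up and 28.6% down), and PCI-34051 upregulated 1 of 6 and downregulated 2 (51.1%, 25.5% and 25.6%). Of the 3 downregulated by Tubastatin A, COL11A2 passed the low count filter there only through WT. The median over the same 5 genes was -0.39 in KDAC6H216A, 0.20 in KDAC6H611A, -0.51 with Tubastatin A and -0.31 with PCI-34051.

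COL5A1 (GRCh38 chr9:134641803-134844843, plus strand) encodes the chain that nucleates and limits the width of type I fibrils. It stood at 104, 100.4, 93.8 and 113 CPM in the WT libraries and 591, 349, 479 and 625 in KDAC8H143A, with no overlap (log2 fold change 2.37 ± 0.18, adjusted p = 1.09e-06, a fold of 5.16). The log2 fold change was 1.36 after correction for GC content and length. In the KDAC6H216A libraries it was at 116, 48.1, 39.1 and 51.0 and in KDAC6H611A at 75.3, 111, 60.6 and 87.1. The first KDAC6H216A library, the one low in mitochondrial rRNA, was the only one of its group that was not below WT. Without it COL5A1 was called downregulated in KDAC6H216A, with a log2 fold change of -1.29 ± 0.086 and an adjusted p of 2.13e-09, while the fit with all 4 libraries gave -0.74 ± 0.34 and 0.381. With Tubastatin A it stood at 79.6, 77.4 and 76.4 and with PCI-34051 at 89.8, 84.6 and 92.5, below all WT libraries in both (log2 fold changes -0.51 ± 0.059 and -0.31 ± 0.065, adjusted p = 2.89e-07 and 0.000600). By total count only neither inhibitor gave a call, at -0.16 and 0.084.

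COL27A1 (chr9:114155537-114312511, plus strand), a fibrillar collagen of cartilage and developing tissue, was likewise highest in KDAC8H143A. It was at 135, 132, 134 and 144 CPM in WT and 729.9, 379, 571 and 1022 in KDAC8H143A (log2 fold change 2.36 ± 0.25, adjusted p = 8.97e-06), and the change was 1.27 after correction for GC content and length. Tubastatin A libraries held 53.1, 53.1 and 48.6 CPM and PCI-34051 libraries 70.1, 66.7 and 68.7, so that both groups lay below WT without overlap (-1.52 ± 0.054, adjusted p = 1.68e-14, and -1.09 ± 0.053, adjusted p = 1.39e-11). KDAC6H216A (175, 95.0, 84.3 and 86.6 CPM) again had its first library above WT and the other 3 below, and KDAC6H611A (141, 231, 97.3 and 146 CPM) overlapped with WT. Neither KDAC6 line was called with all libraries. Without its first library KDAC6H216A was called, at -0.76 ± 0.062 and an adjusted p of 3.02e-08.

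COL1A1 (chr17:50184101-50201632, minus strand) and COL1A2 (chr7:94394895-94431227, plus strand) encode the chains of type I collagen, 2 of the first and 1 of the second in each molecule. In KDAC8H143A the first was upregulated and the second downregulated. COL1A1 stood at 3.51, 3.12, 2.77 and 2.75 CPM in WT, 10.2, 6.76, 10.7 and 21.3 in KDAC8H143A, 9.57, 11.3 and 10.99 with Tubastatin A and 11.1, 6.83 and 8.83 with PCI-34051. These 3 groups lay above WT without overlap, with log2 fold changes of 2.06 ± 0.35, 1.71 ± 0.15 and 1.47 ± 0.21 (adjusted p = 0.000240, 1.05e-08 and 9.21e-06). The first of these was 0.99 after correction for GC content and length. In KDAC6H216A it was at 0.999, 0.513, 0.965 and 0.290 CPM, below WT in all 4 libraries, and the change of -2.21 ± 0.39 missed the threshold at an adjusted p of 0.0166. Without KDAC6H216A replicate 1 it passed, at -2.45 ± 0.36 and an adjusted p of 3.63e-05. KDAC6H611A (2.77, 4.19, 2.26 and 3.49 CPM) overlapped with WT, with a difference of 0.082. Its approximate 95% interval, from a normal quantile and so too narrow for few libraries, was -0.46 to 0.63.

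COL1A2 was at 5 counts or fewer in all libraries of the 3 mutant lines. The counts were 11, 10, 29 and 14 in WT, 1, 1, 2 and 1 in KDAC6H216A, 0, 0, 2 and 0 in KDAC6H611A and 0, 5, 0 and 0 in KDAC8H143A, against 142, 127 and 96 with Tubastatin A and 94, 127 and 126 with PCI-34051. In CPM this is 2.27, 1.25, 3.66 and 2.02 in WT, 0.0967 to 0.193 in KDAC6H216A, 0 to 0.181 in KDAC6H611A, 0 to 0.242 in KDAC8H143A, 4.53, 4.18 and 3.15 with Tubastatin A and 3.52, 4.04 and 4.43 with PCI-34051. None of the 12 mutant libraries reached the lowest WT library. In KDAC8H143A the gene, which passed the low count filter there only through WT, was called (log2 fold change -4.59 ± 0.70, adjusted p = 0.000120). Its size there rests on 1 library, since replicate 2 held all the counts, and without it the fitted change was -7.46. In the KDAC6 lines it did not pass the filter on low counts, and taking 3 counts per library as the floor it was at least 7.29-fold lower in KDAC6H216A and at least 6.06-fold lower in KDAC6H611A than in WT. Fitted without the filter the adjusted p was 0.000319 and 1.14e-10 in these lines. The inhibitor libraries overlapped with WT and were not called (log2 fold changes 0.67 and 0.70, adjusted p = 0.0336 and 0.0305), whereas by total count only they were, at 1.013 and 1.08. The ratio of COL1A1 to COL1A2 per kilobase was 1.32 ± 0.620 in WT, 2.37 ± 0.593 with Tubastatin A and 1.957 ± 0.665 with PCI-34051, and COL1A2 was too low in 11 of the 12 mutant libraries to give one.

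The remaining fibrillar genes were low. COL11A1 and COL11A2, chains of the cartilage collagen type XI, rose in KDAC8H143A from 0.207, 0.249, 0.504 and 0.434 to 2.33, 1.26, 1.70 and 3.26 CPM for COL11A1 (log2 fold change 2.57 ± 0.47, adjusted p = 0.000416) and from 2.68, 1.87, 1.77 and 1.88 to 11.2, 3.72, 7.10 and 14.4 CPM for COL11A2 (log2 fold change 2.21 ± 0.41, adjusted p = 0.000516). After correction for GC content and length COL11A2 was at 1.006 and lost its call (adjusted p = 0.0158). Neither gene overlapped with WT there, although COL11A1 rests on 24 to 40 counts per KDAC8H143A library and 1 to 4 per WT library. COL11A2 was downregulated with Tubastatin A, at 0.766, 0.987 and 0.918 CPM (log2 fold change -1.27 ± 0.29, adjusted p = 0.000734), and stood at 1.497, 0.763 and 0.9497 with PCI-34051 (-1.010, adjusted p = 0.0129). In the KDAC6 lines COL11A2 was at 2.87, 1.64, 1.16 and 0.871 and 3.03, 4.19, 1.27 and 3.603 CPM, and COL11A1 stayed under 1 CPM in every KDAC6 and inhibitor library. COL5A2, the partner of COL5A1 in type V collagen, was called only in KDAC8H143A among the 5 comparisons with WT, at 3.54 ± 0.664 against 1.89 ± 0.373 CPM (log2 fold change 0.96 ± 0.27, adjusted p = 0.00682). That call was lost without any one of 7 of the 8 libraries, all but KDAC8H143A replicate 2, with adjusted p between 0.0105 and 0.0308, and with DESeq2 (0.0114).

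Basement membrane collagens divided into chains that fell and chains that rose. The type IV pair COL4A1 and COL4A2 stood lower than WT in the mutant lines, with COL4A1 called in all 3 and COL4A2 in 2, whereas COL4A5 was higher in KDAC6H611A and with both inhibitors and COL4A6 in KDAC6H611A. In KDAC6H611A 3 of the 6 tested were upregulated and 2 downregulated, which is 83.3% of them against a background of 12.3%. Of the 3, COL4A6 passed the low count filter there only through KDAC6H611A, so its call was partly set by the filter. KDAC6H216A downregulated 1 of 6 (background 0.834%). KDAC8H143A upregulated 2 and downregulated 2 of 5 (background 58.5%), Tubastatin A upregulated 2 and downregulated 1 of 7 (57.9%), and PCI-34051 upregulated 3 of 7 (51.1%), so that with the inhibitors the share called was 42.9%, below the background.

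The type IV genes lie head to head in pairs, transcribed away from a shared promoter region. The pairs are COL4A1 with COL4A2 on chromosome 13, COL4A5 with COL4A6 on chromosome X and COL4A3 with COL4A4 on chromosome 2. For the pairs on chromosomes 13 and X, 1 start site was kept per gene. For COL4A6 it was the start nearest to COL4A5, so the closeness of that pair was in part chosen. The windows of 300 bases that hold these start sites were taken from RefSeq on GRCh38.p14. They are printed 5′ to 3′ on the strand of the gene, and capitals mark the CCAAT motif on either strand (CCAAT or ATTGG). COL4A1 is on the minus strand at chr13:110307108-110307407, COL4A2 on the plus strand at chr13:110307034-110307333, COL4A5 on the plus strand at chrX:108439588-108439887 and COL4A6 on the minus strand at chrX:108439409-108439708.
COL4A1: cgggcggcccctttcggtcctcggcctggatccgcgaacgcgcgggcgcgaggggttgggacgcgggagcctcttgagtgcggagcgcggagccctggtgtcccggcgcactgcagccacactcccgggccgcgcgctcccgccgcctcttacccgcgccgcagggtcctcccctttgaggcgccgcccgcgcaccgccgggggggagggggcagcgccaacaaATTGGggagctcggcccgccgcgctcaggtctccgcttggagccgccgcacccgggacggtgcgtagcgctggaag
COL4A2: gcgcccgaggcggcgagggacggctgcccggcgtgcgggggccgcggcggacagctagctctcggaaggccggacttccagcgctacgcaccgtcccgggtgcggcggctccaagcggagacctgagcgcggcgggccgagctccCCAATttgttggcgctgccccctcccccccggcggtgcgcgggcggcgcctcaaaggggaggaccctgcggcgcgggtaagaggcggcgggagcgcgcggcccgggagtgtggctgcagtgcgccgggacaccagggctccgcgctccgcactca
COL4A5: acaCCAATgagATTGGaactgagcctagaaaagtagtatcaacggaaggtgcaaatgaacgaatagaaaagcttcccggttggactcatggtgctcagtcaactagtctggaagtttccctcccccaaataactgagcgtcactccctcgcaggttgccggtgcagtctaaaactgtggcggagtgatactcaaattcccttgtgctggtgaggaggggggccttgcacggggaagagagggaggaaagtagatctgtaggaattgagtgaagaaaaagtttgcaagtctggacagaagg
COL4A6: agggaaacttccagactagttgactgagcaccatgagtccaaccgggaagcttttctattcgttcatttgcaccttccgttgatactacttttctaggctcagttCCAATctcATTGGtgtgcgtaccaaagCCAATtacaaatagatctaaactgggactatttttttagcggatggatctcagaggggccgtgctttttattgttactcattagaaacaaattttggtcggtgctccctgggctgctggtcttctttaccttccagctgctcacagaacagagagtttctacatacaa
The start sites used for COL4A1 and COL4A2 are 127 bases apart and their windows share 226 bases. Those used for COL4A6 and COL4A5 are 380 bases apart with 121 shared bases. Other start sites would give other distances, and the annotated span of COL4A2 begins at chr13:110305812, upstream of its window. The COL4A1 and COL4A2 windows hold 1 CCAAT match, which is the same one read from both strands, and have a GC content of 76.7% and 77.7%. The windows of COL4A5 and COL4A6 hold 2 and 3 matches, the 2 of COL4A5 being shared, at a GC content of 49.3% and 43.7%. GGGCGG, the core of a GC box, occurs in either orientation 2 times for COL4A1 and 1 time for COL4A2 and does not occur for COL4A5 or COL4A6, and TATAAA occurs in none of the 4. Of all 35116 promoter windows 34.6% hold CCAAT, 45.0% GGGCGG and 11.5% TATAAA on either strand. Of the 44 windows of the 32 collagen genes in the RefSeq table the shares are 31.8%, 54.5% and 18.2%. A match is a description of the letters and not evidence of binding.

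COL4A1 (chr13:110148963-110307157, minus strand) stood at 333, 375, 381 and 367 CPM in WT, 196, 256, 260.2 and 269 in KDAC6H216A, 167, 124, 200.1 and 206 in KDAC6H611A and 191, 195, 249 and 183 in KDAC8H143A. Every mutant library lay below every WT library. It was downregulated in all 3 lines, with log2 fold changes of -0.66 ± 0.076, -1.04 ± 0.13 and -0.78 ± 0.11 (adjusted p = 0.00197, 0.000132 and 7.10e-05). With Tubastatin A it was at 369, 342 and 363 and with PCI-34051 at 335, 340.0 and 358 CPM, overlapping with WT and not called (-0.14 and -0.18, adjusted p = 0.0118 and 0.0110). Other settings called it in opposite directions. DESeq2 (adjusted p = 0.00255 and 0.000985) and the correction for GC content and length (-0.16 and -0.22, adjusted p = 0.00438 and 0.00190) called it downregulated under both, and total count scaling upregulated, at 0.21 under both. COL4A2 (chr13:110305812-110513209, plus strand) was at 537, 661, 628 and 682 CPM in WT, 438, 554, 569 and 609 in KDAC6H216A, 360.2, 296, 420.0 and 458 in KDAC6H611A and 389.7, 364, 497 and 441 in KDAC8H143A. It lay below WT without overlap in KDAC6H611A (log2 fold change -0.69 ± 0.13, adjusted p = 0.00232) and KDAC8H143A (log2 fold change -0.52 ± 0.12, adjusted p = 0.00224). KDAC6H216A overlapped with WT (-0.30 ± 0.090, adjusted p = 0.151). The inhibitor libraries held 622, 565 and 603 and 601, 622 and 643 CPM, within or near the WT range, and Tubastatin A gave a call at a change of -0.19 ± 0.057 (adjusted p = 0.00689), which turned to 0.17 by total count only.

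How firmly these falls stand differs. In KDAC6H216A the calls of COL4A1 and of COL6A2 were lost without any one library other than replicate 1, with adjusted p between 0.0101 and 0.0238, and after correction for GC content and length (COL4A1 at -0.61, adjusted p = 0.0123). In KDAC6H611A the COL4A1 call held in all 8 fits that left out a library. That of COL4A2 was lost without WT replicate 2, WT replicate 4 or KDAC6H611A replicate 1, with adjusted p of 0.0123 to 0.0131. Under Tubastatin A the call of COL4A2 was lost without WT replicate 2, 3 or 4 or Tubastatin A replicate 2 or 3 (adjusted p 0.0157 to 0.0585). Both chains stayed called in KDAC8H143A in all 8 such fits, and after correction for GC content and length they were at -1.41 and -1.55. By total count only, the calls of both chains in KDAC6H611A (-0.99 and -0.64) and that of COL4A2 in KDAC8H143A (-0.23) were lost. The ratio of COL4A1 to COL4A2 per kilobase was 0.575 ± 0.0368 in WT, 0.445 ± 0.00940 in KDAC6H216A, 0.446 ± 0.0253 in KDAC6H611A and 0.479 ± 0.0503 in KDAC8H143A, with no mutant library in the WT range of 0.530 to 0.610. It was 0.592 ± 0.00632 with Tubastatin A and 0.546 ± 0.00607 with PCI-34051.

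COL4A5 and COL4A6, chains of the network of specialised basement membranes such as those of the kidney, skin and smooth muscle, were upregulated in KDAC6H611A, COL4A6 with the largest fold change of the collagens tested there. They span chrX:108439838-108697545 and chrX:108155607-108439497. COL4A5 stood at 40.3, 40.5, 41.5 and 41.9 CPM in WT and 94.4, 112, 106 and 106 in KDAC6H611A (log2 fold change 1.38 ± 0.092, adjusted p = 9.48e-07, a fold of 2.60). COL4A6 went from 1.45, 0.873, 0.504 and 0.867 to 8.16, 8.22, 6.88 and 9.76 CPM (log2 fold change 3.24 ± 0.29, adjusted p = 1.08e-05, a fold of 9.42), that is, from 4 to 7 counts per WT library to 49 to 84. It passed the low count filter in this comparison only through KDAC6H611A, so its call was partly set by the filter. Neither gene overlapped with WT, and both calls held in all 8 fits that left out a library, KDAC6H611A replicate 4 included. In KDAC6H216A COL4A5 was at 45.1, 37.0, 40.1 and 39.4 and COL4A6 at 1.25, 1.23, 1.35 and 1.45 CPM, and neither was called (adjusted p = 0.690 and 0.602). KDAC8H143A held 43.4, 34.2, 44.4 and 50.2 CPM of COL4A5, overlapping with WT, and 0.4996, 0.725, 1.21 and 0.570 of COL4A6, which did not pass the low count filter there. The inhibitors raised COL4A5 without overlap, to 65.9, 67.2 and 70.4 CPM with Tubastatin A (log2 fold change 0.61 ± 0.049, adjusted p = 2.25e-09) and 76.5, 74.4 and 70.5 with PCI-34051 (log2 fold change 0.75 ± 0.055, adjusted p = 3.39e-09). COL4A6 stayed low under both, at 1.28, 1.35 and 1.90 and 1.53, 1.18 and 1.20 CPM (adjusted p = 0.0998 and 0.278). The ratio of COL4A5 to COL4A6 per kilobase was 13.2 ± 2.13 in KDAC6H611A, against 52.4 ± 23.2 in WT and 31.5 ± 3.89 in KDAC6H216A.

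**Figure D4:**
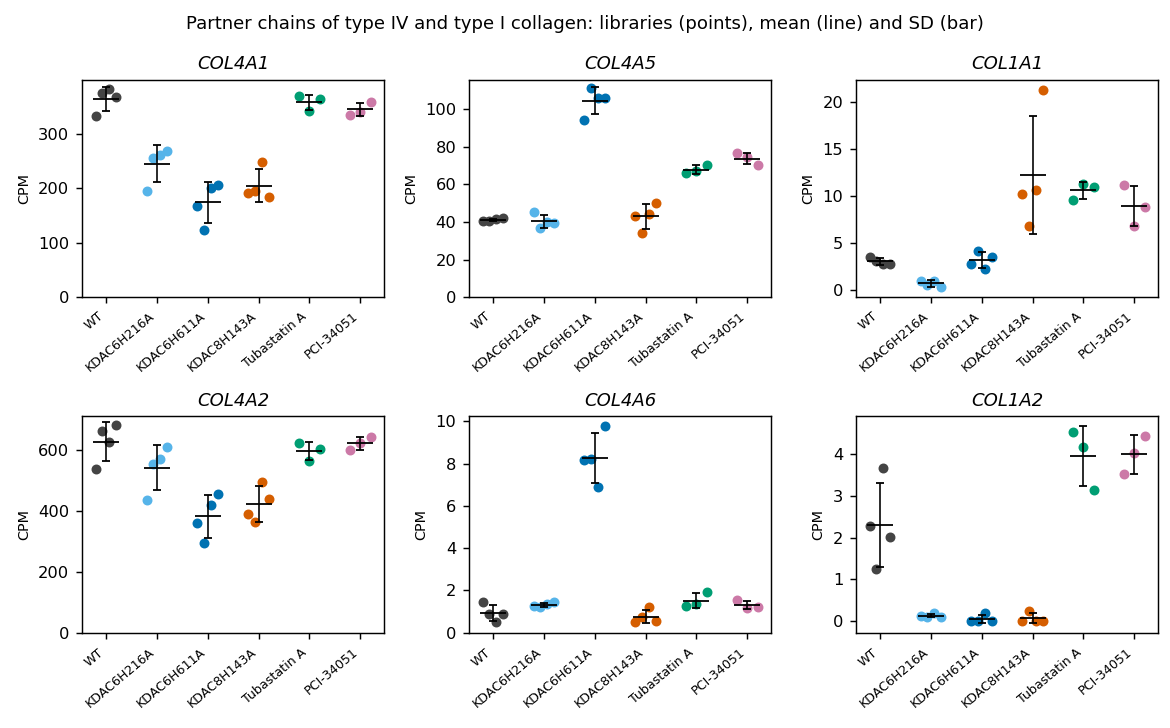
CPM of COL4A1, COL4A2, COL4A5, COL4A6, COL1A1 and COL1A2 in the 6 groups, 1 panel per gene, with 1 point per library and the group mean with its SD. COL4A5 and COL4A6 stand out in the KDAC6H611A libraries, and COL1A2 lies at 0.242 CPM or less in all 12 mutant libraries.

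COL7A1 (chr3:48564073-48595329, minus strand), the anchoring fibril collagen of skin, was at 15.5, 15.1, 19.3 and 19.2 CPM in WT and 117, 52.8, 103 and 199 in KDAC8H143A, all above WT (log2 fold change 2.82 ± 0.33, adjusted p = 2.02e-05), and the change was 1.39 after correction for GC content and length. It was also above WT in all KDAC6H611A libraries, at 30.2, 54.5, 22.9 and 37.8 CPM (log2 fold change 1.09 ± 0.24, adjusted p = 0.00597), but that call was lost without any one WT library or without KDAC6H611A replicate 4 (adjusted p 0.0163 to 0.0261). KDAC6H216A held 20.6, 9.75, 8.49 and 7.74 CPM, with the first library above WT and the other 3 below. Without that library COL7A1 was downregulated, at -1.14 ± 0.13 (adjusted p = 1.46e-06). With Tubastatin A it was at 21.8, 18.9 and 17.8 CPM, overlapping with WT, and with PCI-34051 at 23.6, 21.7 and 25.3, just above it (log2 fold change 0.34 ± 0.10, adjusted p = 0.00631). The PCI-34051 call was lost without WT replicate 1 or 2 or PCI-34051 replicate 1 or 3 (adjusted p 0.0156 to 0.0401), with DESeq2 (0.0102) and after correction for GC content and length (0.14, adjusted p = 0.226).

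COL18A1, whose C-terminal fragment is endostatin, rose with both inhibitors. It was at 35.1, 43.8, 41.0 and 48.1 CPM in WT, 78.0, 74.0 and 80.3 with Tubastatin A and 85.7, 83.8 and 83.7 with PCI-34051, without overlap (log2 fold change 0.76 ± 0.061, adjusted p = 2.43e-09, and log2 fold change 0.90 ± 0.068, adjusted p = 4.14e-09). In KDAC8H143A it stood at 68.7, 44.4, 61.6 and 79.2 CPM, overlapping with WT in 1 library, with a change of 0.64 ± 0.17 (adjusted p = 0.00478). That call was lost in 6 of the 8 fits that left out a library (without WT replicate 1, 2 or 3 or KDAC8H143A replicate 1, 3 or 4, adjusted p 0.0136 to 0.0213). After correction for GC content and length the direction was reversed, to -0.96. The KDAC6 lines held 39.4, 47.0, 45.5 and 45.5 and 47.0, 46.6, 46.6 and 62.8 CPM and were not called. COL18A1 shares 18.5% of its annotated exon bases with SLC19A1 on the opposite strand, and whether the counting used strand is not given in the sources used here, so reads of these genes may not be told apart. COL4A4, the last chain tested of this class, passed the filter only with the inhibitors and was not called (adjusted p = 0.226 and 0.0414).

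Minor collagens were led in level by type VI, whose 3 main chains were all upregulated with each inhibitor. Tubastatin A upregulated 5 and downregulated 3 of 13 minor genes tested, which is 61.5% against a background of 57.9%, and PCI-34051 3 and 3 of 13, which is 46.2% against 51.1%. KDAC8H143A upregulated 3 and downregulated 3 of 15 (background 58.5%), KDAC6H611A upregulated 2 and downregulated 1 of 13 (23.1% against 12.3%), and KDAC6H216A downregulated 1 of 13 (7.69% against 0.834%). Of the 3 upregulated in KDAC8H143A, COL25A1 and COL6A5 passed the low count filter against WT only there. COL28A1, downregulated under both inhibitors, passed it in those comparisons only through WT.

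COL6A3 (chr2:237324003-237414328, minus strand) was at 1902, 2201, 2205 and 2081 CPM in WT, 5658, 5535 and 5599 with Tubastatin A and 6126, 6027 and 6216 with PCI-34051. All 6 treated libraries exceeded the highest WT library (log2 fold change 1.301 ± 0.043, adjusted p = 5.57e-15, and log2 fold change 1.45 ± 0.047, adjusted p = 8.16e-14, folds of 2.46 and 2.73). COL6A2 rose as well, from 139, 154, 153 and 163 CPM in WT to 278, 246 and 266 and 251, 256 and 264 (0.67 ± 0.053 and 0.66 ± 0.057, adjusted p = 1.62e-09 and 2.60e-08). COL6A1 went from 126, 144, 138 and 142.7 CPM to 206, 183 and 203 and 222, 227 and 227 (0.40 ± 0.053 and 0.61 ± 0.054, adjusted p = 1.83e-06 and 3.51e-08). Neither overlapped with WT under either inhibitor, and all 6 calls held without any 1 library and under total count scaling. The doses of the inhibitors differ, so they are given side by side and not compared. The ratio of COL6A3 to COL6A1 per kilobase was 6.07 ± 0.219 in WT, 11.4 ± 0.626 with Tubastatin A and 10.8 ± 0.232 with PCI-34051.

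In KDAC6H611A and KDAC8H143A COL6A3 was downregulated. KDAC6H611A held 1243, 949.9, 1543 and 1428 CPM and KDAC8H143A 1335, 1362, 1626 and 1292, all below WT (log2 fold change -0.68 ± 0.15, adjusted p = 0.00529, and log2 fold change -0.53 ± 0.11, adjusted p = 0.000919). The KDAC6H611A call was lost without any one WT library or KDAC6H611A replicate 1 (adjusted p 0.0154 to 0.0255), and by total count only neither line gave a call (-0.64 and -0.24). In KDAC8H143A the change was -1.13 after correction for GC content and length. KDAC6H216A held 1883, 2587, 2877 and 2885 CPM, the first library below WT and the other 3 above, and was not called (0.19, adjusted p = 0.487). Without the first library it was called upregulated at 0.27 ± 0.053 (adjusted p = 0.000533). COL6A2 was below WT in all KDAC6H216A libraries, at 107, 112, 117 and 116 CPM (log2 fold change -0.52 ± 0.067, adjusted p = 0.00361), while KDAC6H611A (123, 117, 115 and 174 CPM) and KDAC8H143A (158, 125, 169 and 227 CPM) overlapped with WT. COL6A1 was likewise below WT in KDAC6H216A, at 104, 117, 113 and 120.1 CPM, with a change of -0.37 ± 0.065 that missed the threshold (adjusted p = 0.0177). KDAC6H611A (146, 162, 142.5 and 184 CPM) and KDAC8H143A (128, 92.7, 137 and 167 CPM) overlapped with WT for COL6A1. COL6A5, a chain that can replace COL6A3, rested on few reads. It was at 1.033, 0.499, 0.757 and 0.289 CPM in WT and 2.75, 2.03, 1.70 and 1.55 in KDAC8H143A (log2 fold change 1.73 ± 0.39, adjusted p = 0.00196), a call lost without WT replicate 2 (adjusted p = 0.0113). Elsewhere COL6A5 was at 0.999, 1.027, 0.675 and 0.290 CPM in KDAC6H216A, 1.19, 2.01, 1.72 and 1.28 in KDAC6H611A, 0.223, 0.230 and 0.197 with Tubastatin A and 0.112, 0.222 and 0.176 with PCI-34051. COL6A6 was tested in all comparisons and called in none.

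Fibril-associated collagens bind to the surface of larger fibrils. COL12A1 stood at 89.4, 93.1, 97.5 and 101 CPM in WT, 37.7, 45.03, 40.3 and 31.1 in KDAC8H143A, where it was downregulated (log2 fold change -1.25 ± 0.11, adjusted p = 3.75e-06), and 156, 149 and 146 with Tubastatin A, where it was upregulated (log2 fold change 0.54 ± 0.050, adjusted p = 1.56e-08). Neither group overlapped with WT. With PCI-34051 it was at 102, 105 and 109.6 CPM, above WT in all libraries but with a fitted change of only 0.049 ± 0.052 (adjusted p = 0.437). KDAC6H216A held 74.1, 127, 142 and 143.1 CPM, its first library below and the other 3 above WT, and KDAC6H611A 64.1, 39.2, 85.1 and 72.4, all below WT (-0.52 ± 0.16, adjusted p = 0.0349). Neither was called, and without its first library KDAC6H216A was, at 0.39 ± 0.057 (adjusted p = 3.51e-05).

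COL16A1 (chr1:31652263-31704319, minus strand) was upregulated in KDAC6H611A and KDAC8H143A. It was at 5.78, 4.74, 5.55 and 3.90 CPM in WT, 13.96, 26.5, 9.95 and 14.3 in KDAC6H611A (log2 fold change 1.72 ± 0.30, adjusted p = 0.00146) and 22.5, 10.97, 21.0 and 46.4 in KDAC8H143A (log2 fold change 2.39 ± 0.39, adjusted p = 0.000210), with no overlap and with both calls held in all 8 fits that left out a library. The change in KDAC8H143A was 1.25 after correction for GC content and length. In KDAC6H216A it was at 4.12, 2.26, 1.83 and 2.22 CPM, overlapping with WT and not called (-1.012, adjusted p = 0.179), and at 4.31, 4.11 and 4.66 and 5.76, 5.15 and 5.03 with Tubastatin A and PCI-34051. COL22A1, a collagen of tissue junctions, fell in KDAC8H143A from 8.88, 9.47, 8.58 and 7.95 to 1.75, 1.26, 1.70 and 4.73 CPM (log2 fold change -1.86 ± 0.36, adjusted p = 0.000599, and -2.74 after correction for GC content and length). It was at 6.75, 8.32, 5.40 and 6.77 CPM in KDAC6H216A, 8.56, 13.4, 9.23 and 11.3 in KDAC6H611A, 12.5, 11.5 and 11.3 with Tubastatin A and 13.0, 11.7 and 10.7 with PCI-34051, none of them called.

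Transmembrane collagens anchor in the plasma membrane of the producing cell. COL17A1 (chr10:104031286-104085880, minus strand), a hemidesmosome component best known from the epidermis, showed opposite calls in KDAC6H611A and with the inhibitors. It stood at 18.2, 25.7, 20.4 and 24.7 CPM in WT, 39.5, 34.2, 35.1 and 37.7 in KDAC6H611A, 7.02, 7.83 and 7.87 with Tubastatin A and 5.91, 5.59 and 5.17 with PCI-34051. KDAC6H611A lay above WT (log2 fold change 0.74 ± 0.12, adjusted p = 0.000693, not called by total count only) and both treatments below it (log2 fold change -1.68 ± 0.11, adjusted p = 6.96e-11, and log2 fold change -2.11 ± 0.12, adjusted p = 1.13e-10), none overlapping. KDAC6H216A (24.6, 26.1, 28.6 and 29.7 CPM) and KDAC8H143A (17.5, 13.5, 17.1 and 20.0 CPM) overlapped with WT and were not called. COL13A1, which sits at adhesion sites and neuromuscular junctions, was at 199, 212, 201 and 217 CPM in WT and fell to 155, 151 and 155 and 160.4, 164 and 178 with the inhibitors (-0.54 ± 0.047 and -0.41 ± 0.060, adjusted p = 5.91e-09 and 1.49e-05). By total count only the PCI-34051 call was lost (-0.018). It was at 267, 247, 219.9 and 232 CPM in KDAC6H216A, 203, 221, 190.1 and 245 in KDAC6H611A and 276, 153, 265 and 375 in KDAC8H143A, with no call. COL25A1, known from neurons and developing muscle, had counts of 20, 51, 41 and 43 in KDAC8H143A against 0, 3, 0 and 2 in WT. In CPM it stood at 1.67, 2.46, 2.91 and 3.50 in KDAC8H143A and at 0.691 or less in every other library. It was called in KDAC8H143A (log2 fold change 3.84 ± 0.58, adjusted p = 0.000113), and against the floor of 3 counts per WT library it was at least 5.84-fold higher.

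Of the remaining minor genes, COL28A1 was downregulated by both inhibitors, from 1.033, 1.496, 1.39 and 1.59 CPM in WT to 0.542, 0.757 and 0.590 with Tubastatin A (log2 fold change -1.26 ± 0.32, adjusted p = 0.00204) and 0.486, 0.413 and 0.879 with PCI-34051 (log2 fold change -1.33 ± 0.38, adjusted p = 0.00570). In both comparisons it passed the low count filter only through WT, where it is high, so these calls were partly set by the filter. The Tubastatin A call was lost without WT replicate 2 or 4 or Tubastatin A replicate 1 or 3 (adjusted p 0.0109 to 0.0128). The PCI-34051 call was lost without WT replicate 2, 3 or 4 or PCI-34051 replicate 1 or 2 (adjusted p 0.0173 to 0.0292) and with DESeq2 (0.0107). Both calls were lost by total count only and without the low count filter. COL28A1 was at 3.00, 1.44, 1.06 and 0.774 CPM in KDAC6H216A, 2.11, 3.69, 1.54 and 1.63 in KDAC6H611A and 1.92, 2.08, 2.13 and 1.55 in KDAC8H143A, with no call. COL8A1, a short-chain network collagen, stood at 10.3, 10.7, 10.6 and 10.8 CPM in WT, 8.41, 12.0, 10.2 and 7.66 in KDAC8H143A, 13.0, 10.6, 11.6 and 11.1 in KDAC6H216A, 12.0, 12.6, 11.6 and 14.9 in KDAC6H611A, 11.4, 12.4 and 11.7 with Tubastatin A and 11.3, 10.1 and 9.74 with PCI-34051. It was called in no comparison. The approximate 95% interval (normal quantile) of its log2 fold change was 0.027 to 0.55 in KDAC6H611A and -0.41 to 0.23 in KDAC8H143A. Such intervals are too narrow for so few libraries, and the edgeR test gave an unadjusted p of 0.0506 in KDAC6H611A. COL8A2, the partner of COL8A1, was upregulated with Tubastatin A, at 3.83 ± 0.240 against 1.89 ± 0.440 CPM (log2 fold change 0.91 ± 0.23, adjusted p = 0.00159), a call lost without WT replicate 2 (adjusted p = 0.0114). COL10A1, the collagen of hypertrophic cartilage, had group means of 1.47 to 4.28 CPM and was called in no comparison.

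The 2 KDAC6 lines were also compared directly, since a call in one and not in the other does not show that they differ. Of all genes 9.93% were called, and of 25 collagen genes 7, with 6 higher (background 4.61%) and 1 lower (5.31%) in KDAC6H611A than in KDAC6H216A. COL4A6 (log2 fold change 2.72 ± 0.22, adjusted p = 3.97e-05), COL4A5 (log2 fold change 1.45 ± 0.13, adjusted p = 6.17e-05) and COL16A1 (log2 fold change 2.72 ± 0.40, adjusted p = 0.00127) were higher in KDAC6H611A in all libraries, and these 3 calls held in all 8 fits that left out a library. COL1A1 (log2 fold change 2.27 ± 0.44, adjusted p = 0.00558), COL6A1 (log2 fold change 0.57 ± 0.11, adjusted p = 0.00587) and COL17A1 (log2 fold change 0.52 ± 0.094, adjusted p = 0.00399) were also higher and COL6A3 lower (log2 fold change -0.90 ± 0.17, adjusted p = 0.00489), without overlap. These 4 were each lost in 5 or 6 of the 8 fits, without KDAC6H611A replicate 4 in each case (adjusted p 0.0142 to 0.0192), without KDAC6H611A replicate 1 or KDAC6H216A replicate 2, 3 or 4 in each case, and for COL1A1 and COL6A1 also without KDAC6H611A replicate 2. Over all these fits the lowest adjusted p at a loss was 0.0122 and the highest 0.0285. By total count only and without the low count filter COL6A1, COL17A1 and COL6A3 lost their calls, and after correction for GC content and length COL6A1 and COL17A1 did. COL1A1 passed that filter in this comparison only through KDAC6H611A.

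The libraries that stood apart changed the picture of KDAC6H216A more than that of KDAC6H611A. Without KDAC6H216A replicate 1, 26.0% of all genes were called against WT, and 12 of 25 collagen genes, 2 higher (background 12.2%) and 10 lower (13.8%). The 2 were COL6A3 and COL12A1, and the 10 were COL1A1, COL1A2, COL5A1, COL27A1, COL4A1, COL4A2, COL7A1, COL6A1, COL6A2 and COL16A1. Without KDAC6H611A replicate 4, 10.3% of all genes and 8 of 25 collagen genes were called, 4 higher (background 4.76%) and 4 lower (5.57%), with COL7A1 lost and COL1A2 gained. In both fits COL1A2 passed the low count filter only through WT. In the direct comparison, leaving out KDAC6H216A replicate 1 gave 8 higher (background 9.8%) and 2 lower (9.68%) at 19.5% of all genes, and leaving out KDAC6H611A replicate 4 gave 3 higher and 0 lower at 5.86% (2.93% in each direction). With an absolute log2 fold change of at least 1 the direct comparison called 4 collagen genes and 5.4% of all genes.

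In KDAC8H143A, fold changes of all genes rose with the GC content of the transcript, and collagen transcripts are rich in GC. The median GC content was 56.1% for the 27 collagen genes tested with a reference transcript and 48.5% for all 15897 genes. From transcripts under 40% GC to those of 65% or more, the bin medians of the log2 fold change over all genes went from -0.82 to 1.58. After correction for GC content and length they lay between -0.060 and 0.027. With it COL25A1 (4.31), COL11A1 (2.48), COL6A5 (1.84), COL7A1 (1.39), COL5A1 (1.36), COL27A1 (1.27), COL16A1 (1.25) and COL1A1 (0.99) stayed upregulated. COL11A2 (1.006, adjusted p = 0.0158) and COL5A2 (0.83, adjusted p = 0.0162) lost their calls. COL6A1 (-1.16), COL6A2 (-1.23) and COL17A1 (-1.010) were called downregulated only with the correction, and COL1A2 (-5.10), COL22A1 (-2.74), COL12A1 (-1.35), COL4A1 (-1.41), COL4A2 (-1.55) and COL6A3 (-1.13) stayed downregulated. COL18A1 turned from an upregulated to a downregulated call, at -0.96. The median of the 5 fibrillar genes was then 1.006, and those of the basement membrane and minor genes -0.96 and -1.13, at a background of 48.7% of all genes called. The correction centres genes of like GC content on each other, so it would also remove a change shared by GC-rich transcripts.

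**Figure D5:**
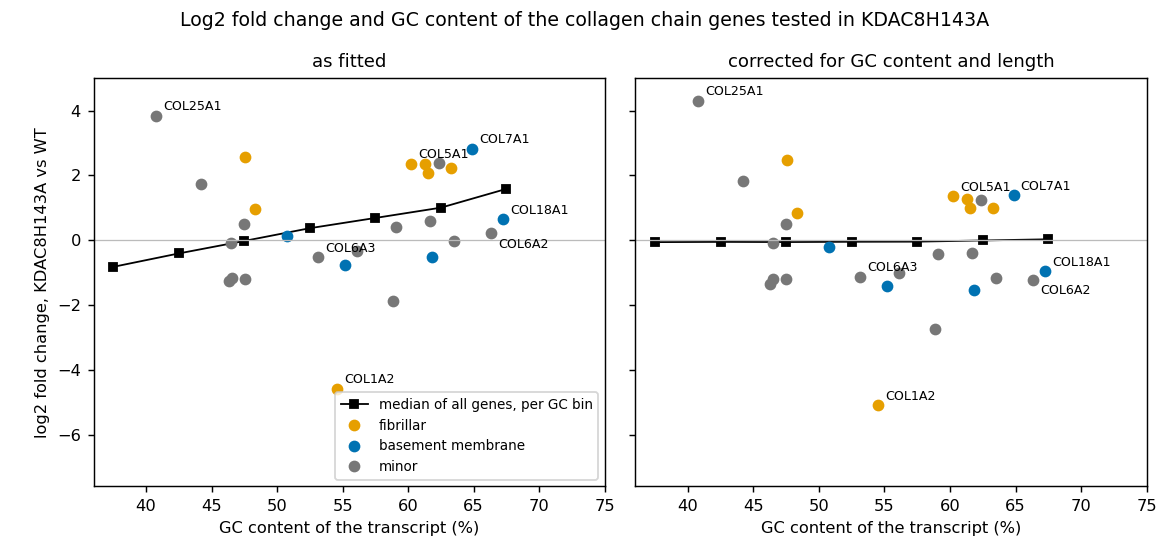
Log2 fold change in KDAC8H143A against WT of the collagen chain genes tested, by GC content of the transcript (%), as fitted (left) and corrected for GC content and length (right), with the median of all genes in bins of GC content as a line. The line climbs from -0.82 to 1.58 on the left and is near 0 on the right, where COL18A1 falls below 0 while COL5A1 and COL7A1 stay above it.

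Chains need a common machinery to be hydroxylated, folded, secreted, trimmed and crosslinked, so lists of such genes and of collagen receptors and partners were examined beside the chains. With both inhibitors most of these genes were upregulated, against 29.3% and 25.5% of all genes. These lists were chosen with earlier results of these data known, so their counts, here and below, are descriptions and not a test. Of the intracellular processing genes 19 of 22 tested were upregulated with each inhibitor and none was downregulated, with median log2 fold changes of 0.76 for Tubastatin A and 0.74 for PCI-34051 against -0.0029 and -0.0071 over all genes. Of the mesenchymal markers 7 of 9 tested were upregulated with Tubastatin A and 6 of 9 with PCI-34051, with medians of 0.57 and 0.62, and their part in these counts was not tested. P3H2, a prolyl 3-hydroxylase, went from 3.21 ± 0.526 CPM in WT to 15.2 ± 0.269 and 13.2 ± 1.05 (log2 fold changes 2.16 ± 0.14 and 1.97 ± 0.15, adjusted p = 5.64e-11 and 6.28e-09). P4HA1, a subunit of prolyl 4-hydroxylase, went from 27.3 ± 2.58 to 90.1 ± 2.52 and 97.6 ± 6.87 CPM (1.60 ± 0.056 and 1.73 ± 0.068, adjusted p = 1.33e-14 and 8.77e-13).

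Genes that act outside the cell rose likewise, 12 of 13 tested with Tubastatin A and 11 of 14 with PCI-34051, with none downregulated. ADAMTS2, which removes the N-propeptide of fibrillar procollagens, went from 1.11 ± 0.764 CPM in WT to 18.5 ± 1.56 and 16.8 ± 0.712 (3.80 ± 0.22 and 3.68 ± 0.24, adjusted p = 1.63e-11 and 5.39e-10). LOXL2, a crosslinking enzyme, went from 295 ± 21.5 to 1095 ± 49.4 and 1078 ± 44.6 CPM (1.77 ± 0.049 and 1.77 ± 0.059, adjusted p = 4.81e-16 and 1.06e-13). Among the receptors 7 of 10 rose and 2 fell under each inhibitor. ITGA11, a fibrillar collagen integrin, led them, from 15.1 ± 1.89 CPM to 126 ± 7.09 and 184 ± 14.5 (2.97 ± 0.073 and 3.52 ± 0.088, adjusted p = 8.02e-17 and 2.92e-15). The falls were in LAIR1 (-2.93 ± 0.27 and -2.12 ± 0.32) and ITGA10 (-0.82 ± 0.048 and -0.84 ± 0.054).

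Basement membrane partners followed, with 11 of 14 upregulated and 3 downregulated under each inhibitor. LAMA2 rose under both (2.51 ± 0.35 and 1.81 ± 0.39), NID2 rose under Tubastatin A (2.02 ± 0.13) and HSPG2, the basement membrane proteoglycan perlecan, under PCI-34051 (1.90 ± 0.061). Among the falls were LAMB3 under Tubastatin A (-0.57 ± 0.049) and LAMA1 under PCI-34051 (-0.88 ± 0.055), both chains of laminins. Of the fibril and matrix partners 6 of 9 rose under each, among them VCAN (2.21 ± 0.055 and 2.19 ± 0.056) and BGN (2.60 ± 0.25 and 2.12 ± 0.28), and FBN2 fell (-0.22 ± 0.058 and -0.81 ± 0.061). Under the other scalings, filters, designs and corrections tried, the inhibitors upregulated 18 to 22 intracellular genes, 7 to 12 extracellular genes, 7 receptors, 10 or 11 basement membrane partners and 5 to 8 matrix partners.

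In the mutant lines the counts have to be read against other backgrounds. KDAC6H216A, where 0.834% of all genes were called, called 1 gene in each of 3 lists, all downregulated, PXDN (-1.37 ± 0.10, adjusted p = 0.000240), HSPG2 (-0.84 ± 0.088, adjusted p = 0.00135) and VCAN (-0.73 ± 0.085, adjusted p = 0.00209). PXDN encodes peroxidasin, which crosslinks type IV collagen in basement membranes, and it fell in all 3 lines. It was at 21.996 ± 1.54 CPM in WT, 9.04 ± 1.25 in KDAC6H216A and 0.619 ± 0.141 in KDAC6H611A (-5.07 ± 0.19, adjusted p = 7.47e-09). In KDAC8H143A it had no count in any library, which makes it at least 103-fold lower than WT at a floor of 3 counts per library.

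In KDAC6H611A the calls included the rise of P3H2 (2.95 ± 0.18, adjusted p = 5.40e-07) and the fall of PLOD2, a lysyl hydroxylase (-1.42 ± 0.15, adjusted p = 3.50e-05), among processing genes. Among basement membrane partners HSPG2 (1.029 ± 0.093) and LAMB1 (0.92 ± 0.10) rose and LAMA3 fell (-2.34 ± 0.21), and among matrix partners TNC rose (0.62 ± 0.13) and FBN2 (-2.56 ± 0.15) and THBS1 (-1.47 ± 0.16) fell. Of all list members tested in this line, 3 of 21 intracellular processing genes, 0 of 9 extracellular ones, 1 of 10 receptors (ITGA11, 0.99 ± 0.14), 3 of 13 basement membrane partners and 1 of 8 matrix partners were upregulated, and 1, 1, 0, 1 and 3 were downregulated, against 6.08% and 6.24% of all genes.

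KDAC8H143A upregulated 7 and downregulated 9 of 22 intracellular processing genes, 1 and 4 of 13 extracellular ones, 2 and 6 of 10 receptors, 4 and 3 of 13 basement membrane partners and 1 and 5 of 9 matrix partners, against 31.6% and 26.9% of all genes. THBS2, a matricellular protein that binds collagen fibrils, fell from 92.3 ± 7.87 CPM to 0.0590 ± 0.0397, with at most 1 count in a library, and was at least 433-fold lower. PLOD2 (-1.62 ± 0.15), P4HA1 (-1.63 ± 0.15), ITGA11 (-2.24 ± 0.25), ITGA2 (-1.95 ± 0.26), LAMA4 (-1.58 ± 0.092) and VCAN (-1.75 ± 0.12) fell, and these falls kept their calls after correction for GC content and length. BMP1, which removes the C-propeptide of fibrillar procollagens, rose (1.52 ± 0.15, and 0.61 after correction). The rise of AGRN, a basement membrane proteoglycan (1.66 ± 0.15), was not called after correction (-0.051), and that of HSPG2 (0.95 ± 0.10) turned to -0.45.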

How the data were processed

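The 22 libraries were rRNA-depleted, paired-end RNA-seq libraries of HT1080 cells. The authors trimmed reads with Trimmomatic 0.39, aligned them to GRCh38 with Bowtie2 2.4.5 and estimated counts per gene with RSEM 1.3.3, and the deposited values are RSEM expected counts, not normalized. Whether counting used strand is not given in the sources used here. Expected counts were rounded to whole numbers. Each pair of groups was fitted with edgeR 4.0.16 (R 4.3.3) with TMM scaling, its default filter on low counts, the quasi-likelihood test and Benjamini-Hochberg adjustment over all genes tested, with calls at an adjusted p under 0.01 (SE = absolute log2 fold change over the square root of F). The test was also run on simulated data, with an outcome not given here. The spread between simulated libraries was taken from WT alone, so that run does not check the test at the spread of the other groups. Alternatives were DESeq2 1.42.0, upper quartile and total count scaling, other filters and thresholds, 1 fit of all 6 groups, a replicate block, leaving out each library, removal of mitochondrial and small RNA genes, and a correction for GC content and length (mgcv 1.9.3, GENCODE 44).

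Members and lists were chosen with earlier results of these data known. Named with values were members reaching a mean of 1 CPM in any group or called in any comparison, with values per library for those at 10 CPM or called with an absolute log2 fold change of at least 1. Of the partner lists, up to 2 called genes per direction with the largest change and at least 1 CPM were eligible. A result that this rule would name is not reported here. Floors were 3 counts per library and cover counting error only.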

Additional observations from a re-analysis of the deposited data

Results flagged for a closer look

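In 68 groups of 4 libraries looked at for a single library apart from the other 3, 6 were found. Chance alone gives about 1 in 20 of independent looks. These looks were not independent, since the genes share libraries, so whether 6 is an excess was not tested. KDAC6H216A replicate 1, the library of that line with 0.195% of mitochondrial rRNA, was high for COL27A1 (175.4 CPM), COL5A1 (116.2 CPM) and COL7A1 (20.61 CPM). KDAC6H611A replicate 4, with 0.173%, was high for COL18A1 (62.76 CPM) and COL6A2 (173.9 CPM). KDAC8H143A replicate 4 was high for COL22A1 (4.727 CPM).

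The KDAC6 lines differed from each other by the edgeR test of KDAC6H611A against KDAC6H216A in 7 collagen genes. The log2 differences were 2.719 for COL4A6, 1.455 for COL4A5, 2.725 for COL16A1, 2.27 for COL1A1, 0.5711 for COL6A1, 0.5163 for COL17A1 and -0.8964 for COL6A3, with adjusted p between 3.97e-05 and 0.00587.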

How the results depend on the processing

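The 61 calls of named collagen genes against WT or between the KDAC6 lines were compared across settings. Upper quartile scaling and removal of mitochondrial and small RNA genes changed none of them. A threshold of 0.05 is looser than the one that made these calls, so it could lose none and does not test them. With 1 library left out the call was kept 379 times, lost 82 times and reversed 0 times. DESeq2 lost 3 of the 61, the GC content and length correction 7, the fit of all 6 groups 14 and total count scaling 14. Reversed values were COL18A1 in KDAC8H143A (-0.96 with the GC content and length correction, -0.96 with the replicate block added), COL4A2 with Tubastatin A (0.17 by total count) and COL5A1 with PCI-34051 (0.084 by total count). The cause of these changes was not tested.

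The 2 collagen genes called in KDAC6H216A became 4 with DESeq2, 1 by total count, 0 with the GC content and length correction, 4 at a threshold of 0.05 and 0 with an absolute log2 fold change of at least 1. The 8 in KDAC6H611A became 4 by total count and 5 with the fold threshold. The fold threshold left 6 of 15 with Tubastatin A, 5 of 12 with PCI-34051 and 4 of 7 between the KDAC6 lines. The fit of all 6 groups gave 8 with Tubastatin A and 11 between the KDAC6 lines, where total count gave 4. Leaving out 1 library gave 0 to 12 calls in KDAC6H216A, 5 to 11 in KDAC6H611A and 3 to 10 between the KDAC6 lines. The 12 and the 10 came without KDAC6H216A replicate 1, and the other KDAC6H216A fits gave 1 (without WT replicate 2) or 0. The 5 in KDAC6H611A came without WT replicate 4, and the 3 between the lines without KDAC6H216A replicate 2, 3 or 4 or KDAC6H611A replicate 1 or 4.

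The class medians moved by total count to -0.13 for basement membrane and -0.050 for minor genes in KDAC6H216A, 0.39 and 0.21 in KDAC8H143A, 0.41 and 0.39 with Tubastatin A and 0.73 and 0.49 with PCI-34051, and to -0.16 and 0.084 for fibrillar genes with the inhibitors. With the GC content and length correction they were -0.24 for basement membrane genes in KDAC6H216A, 1.006, -0.96 and -1.13 for fibrillar, basement membrane and minor genes in KDAC8H143A, -0.58 and -0.091 for fibrillar and basement membrane genes with Tubastatin A and -0.42 and 0.14 with PCI-34051. Without 1 library they ranged from -0.49 to -0.033 for minor genes in KDAC6H216A, -0.28 to -0.031 for minor genes in KDAC8H143A, -0.55 to -0.45 and -0.41 to -0.26 for fibrillar genes with Tubastatin A and PCI-34051, and 0.030 to 0.28 for minor genes with PCI-34051. Shares from CPM in place of CPM per kilobase were 6.11%, 26.7% and 67.2% in WT, 20.8% basement membrane and 74.8% minor in KDAC6H216A, 50.6% minor in KDAC8H143A, 1.93%, 14.6% and 83.5% with Tubastatin A and 2.11%, 13.96% and 83.9% with PCI-34051.

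Whether replicate numbers pair the samples is not stated. Correlations of deviations between same-numbered libraries were 0.00187 to 0.204 in KDAC6H216A against WT and -0.228 to 0.373 between the KDAC6 lines. In the other comparisons with WT they lay between -0.0754 and 0.129. These values do not settle whether the samples are paired. With the replicate block 1 gene was called in KDAC6H216A and 3 between the KDAC6 lines, and with the block and the GC content and length correction 0 and 3. Over the 61 calls the block kept 50. Depth limits the low genes most, since 3 counts stood for 0.374 to 0.620 CPM in the WT libraries.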
